A study of Mus musculus with 12 samples.

Results

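The genes of the T cell receptor complex and its co-receptors were examined in ILC3s (group 3 innate lymphoid cells) sorted from the small intestine. A fixed list of 10 T cell genes was looked up by symbol: Cd3d, Cd3e, Cd3g, Cd247, Lck, Lat, Cd4, Cd8a, Cd8b1 and Thy1. All 10 were found among the 23284 genes measured, and all 10 were among the 12502 genes that were at 1 FPKM or more in 3 or more libraries and were tested. FPKM is the number of fragments per kilobase of transcript, scaled to the size of the library. It takes account of transcript length and library size, but not of differences between libraries in what other RNA they hold. The question was how much RNA of these T cell genes the ILC3 libraries held, and whether it differed with milk diet or with tissue layer.

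The mice were HR-1 hairless mice, 18 weeks old. Pups of the PA milk groups were suckled by dams fed chow enriched in palmitic acid, a saturated fatty acid, and pups of the ND groups by dams kept on normal chow. Pups of the PA milk groups were born to dams on normal chow and swapped to the other dams after birth. The paper describes no swap for ND pups, so that an effect of swapping cannot be told apart from one of milk diet. From both kinds of offspring, ILC3s were taken from the intraepithelial lymphocyte (IEL) layer and from the lamina propria (LP), with 3 libraries in each of the 4 groups. Cells were gated as negative for lineage markers and positive for Thy1.2, CD25 and Nrp1. The methods text adds CD4 to this gate, where a figure legend names CD45 in its place. The lineage markers listed for flow cytometry of such cells include CD8 and, in the figure legends, TCRβ and TCRγδ, the receptors of both T cell lineages, whereas the methods text names TCRγδ without TCRβ. Which of them the sort for sequencing used is not stated. Thy1 is therefore a gene of the sort itself, and Cd4 and Cd8a may be, so that their levels may describe the sort. Neither pooling of mice nor whether IEL and LP libraries of the same number came from 1 mouse is stated, and p-values measure the spread between these libraries, which may be technical.

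The T cell receptor recognises antigen through a variable receptor pair and signals through associated chains, CD3 delta, epsilon, gamma and zeta, whose cytoplasmic tails carry tyrosine activation motifs. The kinase LCK, which binds the co-receptors CD4 and CD8, phosphorylates these tails, and the adaptor LAT then assembles the downstream signalling complex. Innate lymphoid cells carry no rearranged antigen receptor. Some ILC3s, the lymphoid tissue inducer cells, can carry CD4, and Thy1 is found on innate lymphoid cells as well as on T cells.

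Recovered depth was 8.77 to 14.62 M reads per library. A floor of 3 reads, which corresponded to 0.066 to 0.377 FPKM depending on gene and library, was used as the limit of detection, and it covers counting error only. In 3 libraries far fewer genes were found at 1 FPKM or more, 4390 in PA IEL 2, 5637 in PA LP 2 and 7863 in ND IEL 2, against 8406 to 11378 in the other 9. Diet differences of the chains are given with and without these 3 libraries, an alternative added after the data had been seen. Summed FPKM of 20 genes common to leukocytes ranged from 1591.42 to 4765.46 and overlapped between all 4 groups. Epithelial RNA was found in every library: 19 epithelial genes summed to between 1397.57 and 96969.7 FPKM. RNA of myeloid genes was also found in every library. The 13 myeloid genes summed to 5499.08 FPKM in PA IEL 2, 6214.66 in PA LP 2 and 4109.76 in ND IEL 2. In the other 9 libraries they summed to between 395.13 and 13455.09 FPKM, and their part in the values of the T cell genes was not tested. Of the markers of ILC3s, Id2 was 95.20 to 749.63 FPKM in all 12 libraries, whereas Il22 was at most 0.42 FPKM in 6 of them.

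Cd3g and Cd3d are neighbours on chromosome 9 (GRCm38), transcribed away from each other. Cd3g (ENSMUSG00000002033.14, chr9:44969572-44980431, minus strand) and Cd3d (ENSMUSG00000032094.8, chr9:44981786-44987339, plus strand) were 1354 bases apart. Cd3e (ENSMUSG00000032093.7, chr9:44998740-45009627, minus strand) began its annotated span 11400 bases further on and overlapped an antisense gene, Gm48719. Upstream sequences of the divergent pair are shown because these 2 neighbouring genes encode chains of the same complex and did not always appear together: Cd3g was above the floor in all 6 libraries with Cd3d and in 2 libraries where Cd3d was listed at 0. They are from RefSeq (GRCm38.p6), written 5′ to 3′ in the direction of each gene and ending before its annotated first base, with matched motifs in capitals. The Cd3d run is chr9:44981536-44981768 on the plus strand and the Cd3g run is chr9:44980432-44980681 on the minus strand.
Cd3d: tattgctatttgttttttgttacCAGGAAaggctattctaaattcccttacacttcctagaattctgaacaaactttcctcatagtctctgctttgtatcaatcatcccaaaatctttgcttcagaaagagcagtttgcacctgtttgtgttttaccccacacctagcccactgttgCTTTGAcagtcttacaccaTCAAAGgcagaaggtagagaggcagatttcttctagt
Cd3g: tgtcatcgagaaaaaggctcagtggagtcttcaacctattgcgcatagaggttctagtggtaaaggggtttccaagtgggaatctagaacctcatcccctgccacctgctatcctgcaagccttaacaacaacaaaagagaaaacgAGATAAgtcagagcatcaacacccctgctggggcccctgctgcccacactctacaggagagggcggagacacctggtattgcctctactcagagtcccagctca

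The capitals in the Cd3d run are CAGGAA, the core of an ETS motif, at 227 bases before the start, and CTTTGA and its reverse complement TCAAAG, a TCF/LEF core, at 73 and 54 bases before it. These distances are counted to 44981786, the first base of Cd3d given above, whereas the printed run ends earlier, at 44981768. In the Cd3g run they are AGATAA, the motif of GATA factors, at 104 bases before the start. In the 250 bases upstream of 32817 mouse promoters, these letters on either strand were found in 25.7% for ETS, 13.8% for TCF/LEF and 10% for GATA. Promoter sequences were matched for 7 of the 10 genes, and the ETS letters were present on one strand or the other for Cd3d, Cd3e, Cd247, Lat and Lck. For Cd3e, Lat and Cd247 they lay 16, 16 and 56 bases before the promoter's start. There they were inside the span that RefSeq or GENCODE annotates for the gene, not upstream of it. TGTGGT, a RUNX core found in 14% of all promoters, was present for Lck, and neither CAGCTG, an E-box core found in 13.0% of promoters, nor the TATA box letters TATAAA, found in 12.4%, were present for any of them. These matches describe the letters in these windows only.

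The chains of the CD3 complex were well above the floor in some libraries and listed at 0 in others. All 4 chains were above the floor in all 3 ND LP libraries, in ND IEL 1 and 3 and in PA LP 3, whereas none was above it in PA IEL 1, PA IEL 2, ND IEL 2 or PA LP 2. The remaining libraries held a part of the complex, Cd3g alone in PA IEL 3 and Cd3e with Cd3g in PA LP 1.

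**Figure D1:**
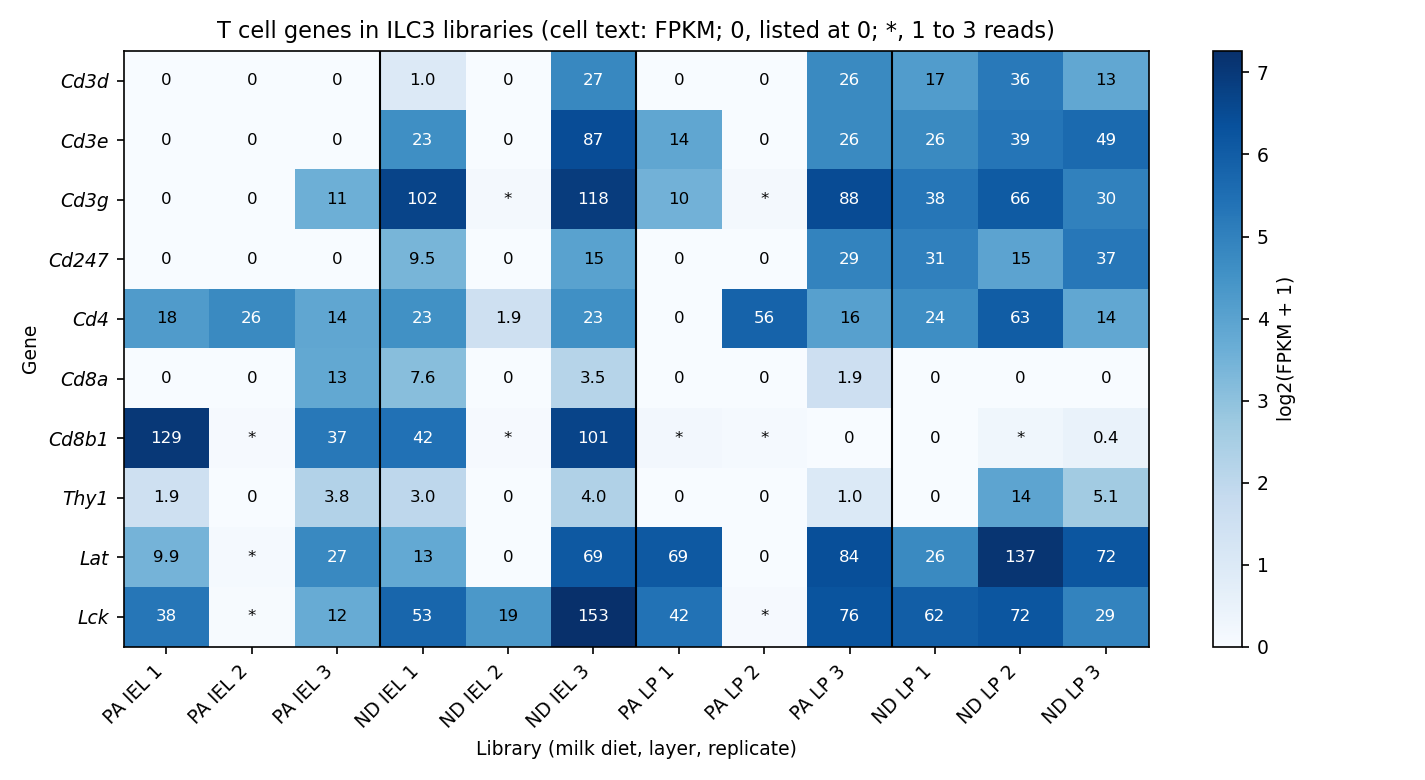
Heat map of the 10 genes (y axis) in the 12 libraries (x axis), coloured by log2(FPKM + 1), with the FPKM in each cell; an asterisk marks 1 to 3 reads. The 4 chains of the CD3 complex fill all 3 ND LP columns and only 1 cell of the 3 PA IEL columns, and Cd8b1 is dark in 4 IEL columns and pale in all LP columns.

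Cd3e, the chain that pairs with both other CD3 chains, was listed at 0 in all 3 PA IEL libraries and at 23.48, 0 and 87.47 FPKM in ND IEL 1, 2 and 3. In LP, Cd3e was 13.56, 0 and 26.05 FPKM with PA milk, against 25.77, 39.32 and 48.92 with ND. The lowest ND LP library thus lay just under the highest PA LP library, and in IEL the groups shared the value 0.

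Cd3d, which pairs with epsilon, was also listed at 0 in all PA IEL libraries and was 0.98, 0 and 26.78 FPKM in ND IEL. It was 0, 0 and 26.07 FPKM in PA LP, against 17.35, 36.21 and 13.47 in ND LP. Its values overlapped between the diets in both layers, in LP because of PA LP 3 alone.

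Cd3g, which forms the other CD3 pair with epsilon, was 0, 0 and 11.14 FPKM in PA IEL, against 102.04, 0.10 and 118.35 in ND IEL. In LP it was 10.32, 0.11 and 87.83 FPKM with PA milk, against 38.30, 65.82 and 30.36 with ND. Cd3g was the chain found in most libraries, above the floor in 8 of 12.

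Cd247, which encodes the zeta chain (ENSMUSG00000005763.15, chr1:165788681-165877277, plus strand), was listed at 0 in PA IEL and at 9.49, 0 and 15.06 FPKM in ND IEL. It was 0, 0 and 29.44 FPKM in PA LP, against 30.87, 14.68 and 37.31 in ND LP. Although it lies on another chromosome, it was above the floor in the same 6 libraries as Cd3d. Its span overlaps 6 annotated genes, among them Pou2f1 on the other strand.

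Counted over 4 chains and 3 libraries, 1 of 12 values was above the floor in PA IEL, 8 of 12 in ND IEL, 6 of 12 in PA LP and 12 of 12 in ND LP. The chains summed to 0, 0 and 11.14 FPKM in PA IEL (3.71 ± 6.43, SD, n = 3) and to 135.99, 0.10 and 247.67 in ND IEL (127.92 ± 123.98). In LP the sums were 23.88, 0.11 and 169.40 FPKM for PA milk (64.46 ± 91.65) and 112.29, 156.03 and 130.06 for ND (132.79 ± 22.0). ND LP was the group in which the libraries lay closest to each other for their level, and the sums of PA LP overlapped those of all other groups.

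**Figure D2:**
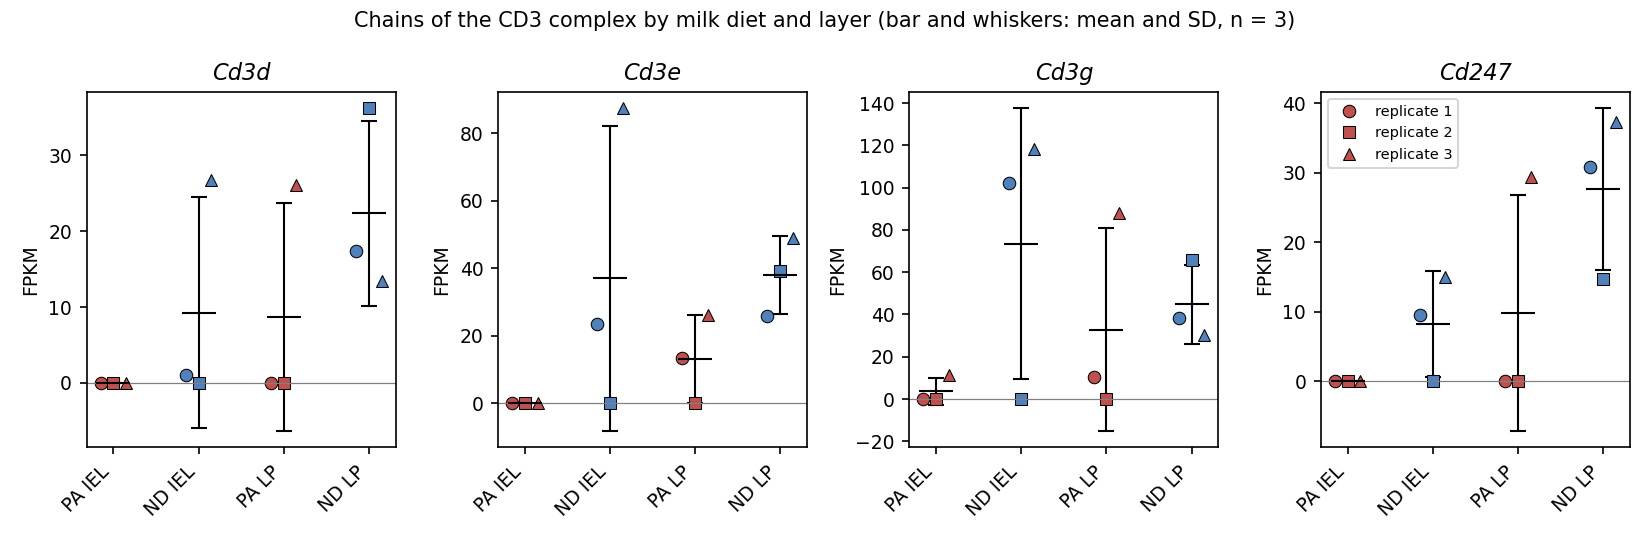
FPKM (y axis, linear) of Cd3d, Cd3e, Cd3g and Cd247 in the 4 groups of milk diet and layer (x axis); symbols are the 3 libraries of a group, and the bar and whiskers are their mean and SD. The PA IEL points lie at 0 except for Cd3g at 11.14 FPKM in replicate 3, the ND LP points all lie at 13.47 FPKM or more, and the other 2 groups are split between 0 and high values.

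Lck and Lat, the kinase and the adaptor, were found more widely than the chains. Lck (ENSMUSG00000000409.14, chr4:129548344-129573641, minus strand) was 38.24, 0.04 and 12.12 FPKM in PA IEL, 52.70, 18.89 and 152.71 in ND IEL, 41.60, 0.05 and 75.65 in PA LP, and then 61.70, 72.15 and 29.09 in ND LP. Lat (ENSMUSG00000030742.7, chr7:126363824-126369570, minus strand) was 9.87, 0.07 and 26.61 FPKM in PA IEL, 12.80, 0 and 68.70 in ND IEL, 68.58, 0 and 83.75 in PA LP, and then 25.86, 137.10 and 72.06 in ND LP. Lck was thus above the floor in 10 libraries and Lat in 9. In PA IEL 1, where all 4 chains were listed at 0, both genes were present. In ND IEL 2, Lck was present at 18.89 FPKM without any chain above the floor. By mean FPKM, the order of the 10 genes differed between groups. Cd8b1 (55.3) was the highest in PA IEL, Lck (74.8) and Cd3g (73.5) in ND IEL, and Lat in PA LP (50.8) and in ND LP (78.3).

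The co-receptors each had a pattern of their own. Cd4 (ENSMUSG00000023274.14, chr6:124864692-124888221, minus strand), whose protein binds MHC class II, was 17.53, 26.11 and 13.69 FPKM in PA IEL, against 22.72, 1.89 and 22.95 in ND IEL. In LP it was 0, 55.77 and 15.74 FPKM with PA milk, against 24.09, 63.34 and 13.50 with ND. Cd4 was above the floor in 11 of 12 libraries, more than any other of the 10 genes. It was the only one of the 10 above the floor in PA IEL 2 and in PA LP 2, whereas in PA LP 1, where Cd3e and Cd3g were found, Cd4 was listed at 0.

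Cd8b1, the beta chain of CD8 (ENSMUSG00000053044.8, chr6:71322788-71337494, plus strand), was above 1 FPKM in IEL libraries alone. It was 128.75, 0.06 and 36.97 FPKM in PA IEL, against 41.93, 0.06 and 101.01 in ND IEL. In LP it was 0.13, 0.08 and 0 FPKM with PA milk, against 0, 0.20 and 0.40 with ND, which for the highest of them, ND LP 3, was 5 reads. The 4 IEL libraries with Cd8b1 lay far above all LP libraries, and the 2 IEL libraries without it were among the 3 with few genes.

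Cd8a, the alpha chain (ENSMUSG00000053977.13, chr6:71373427-71379173, plus strand), 35932 bases downstream of Cd8b1 on the same strand, was lower. It was 0, 0 and 12.96 FPKM in PA IEL, 7.56, 0 and 3.51 in ND IEL and 0, 0 and 1.90 in PA LP, and was listed at 0 in all 3 ND LP libraries. PA IEL 1, the library with the highest Cd8b1, had Cd8a listed at 0. The alpha chain forms CD8 with itself or with beta, whereas beta needs alpha to reach the cell surface.

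Thy1 (ENSMUSG00000032011.5, chr9:44043384-44048579, plus strand) encodes the surface glycoprotein used as Thy1.2 in the gate. Its transcript was 1.87, 0 and 3.77 FPKM in PA IEL, 3.03, 0 and 3.95 in ND IEL, 0, 0 and 1.02 in PA LP, and then 0, 14.16 and 5.11 in ND LP. Although the cells were gated on the protein, the transcript was listed at 0 in 5 of 12 libraries. The other transcripts of the gate were also patchy. Il2ra, which encodes CD25, ranged from 0 to 82.43 FPKM, Nrp1 from 0 to 58.22 and Ptprc, which encodes CD45, from 0.04 to 76.76.

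Of the 120 values of the 10 genes, 37 were listed at 0, 10 were 1 to 3 reads and 73 were above the floor, with 5 to 4425 reads. The share above the floor was 43.3% in PA IEL, 73.3% in ND IEL, 46.7% in PA LP and 80.0% in ND LP. Over all genes tested the same share was 67.4%, 83.4%, 69.9% and 86.7%, with the same order of groups. PA milk holds 2 of the 3 libraries with few genes, 1 in each layer, and the part of these libraries in the order was not tested. In bulk libraries, fewer T cells and less T cell RNA per cell cannot be told apart. Nor can RNA of these genes from T cells be told apart from RNA made by the sorted innate cells or other cells.

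PA milk was first compared with ND in IEL. Of the 10 genes, 8 had a lower mean log2(FPKM + 1) in PA milk, with a median difference of -1.23, against -0.30 over all genes tested. By limma with Benjamini-Hochberg adjustment over 12502 genes, none of the 10 passed an adjusted p-value of 0.05, nor did any gene (0% called), and limma-voom with quality weights also called none. At an unadjusted p-value under 0.05, 1 of the 10 was found, Cd3e, where 3.58% of all genes were. Its log2 difference was -3.69 (SE 1.58, adjusted p = 0.947). The other chains had differences of -3.37 (SE 1.85) for Cd3g, -2.47 (SE 1.43) for Cd247 and -1.93 (SE 1.44) for Cd3d, and Lck -2.75 (SE 1.58). Cd4 (0.72, SE 1.40), Cd8b1 (0.05, SE 1.74), Thy1 (-0.18, SE 1.07), Cd8a (-0.49, SE 1.03) and Lat (-0.53, SE 1.83) differed by less than their standard errors. None of the 10 genes had groups that did not overlap, which 8.19% of all genes had in either direction. The smallest p an exact permutation test allows with 3 libraries against 3 is 0.1, and the exact two-sided p of the 10 genes was 0.2 or more.

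Without the 3 libraries with few genes, the differences of Cd3e and Cd3g in IEL were -5.54 (SE 0.83) and -4.99 (SE 1.20), and limma called neither (adjusted p = 0.363 and 0.899). Those of Cd247, Cd3d and Lck were then -3.70 (SE 1.42), -2.89 (SE 1.65) and -2.0 (SE 0.75), and none was called. ND IEL 2, which this leaves out, was the ND IEL library without any chain above the floor. When ND IEL 3 was left out, Cd3d was -0.49 and Cd3e -2.31. Epithelial genes moved with the diet in IEL as well: they summed to 5303.05 to 59660.02 FPKM in PA milk and 38937.87 to 96969.7 in ND, with a median log2 difference of -2.13, and their part in the difference of the T cell genes was not tested.

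In LP, 9 of the 10 genes had a lower mean log2(FPKM + 1) in PA milk, with a median difference of -1.84, against -0.36 over all genes. Again limma called none of the 10 and no other gene (0% called), and limma-voom called none. At an unadjusted p-value under 0.05, 1 of the 10 was found, Cd247, where 4.7% of all genes were. Cd247 differed by -3.10 on the log2 scale (SE 1.43, adjusted p = 0.979), followed by Cd3d at -2.84 (SE 1.44), Cd3e at -2.37 (SE 1.58) and Cd3g at -2.07 (SE 1.85). Lat (-1.84, SE 1.83), Thy1 (-1.84, SE 1.07), Lck (-1.78, SE 1.58) and Cd4 (-1.54, SE 1.40) were also lower, and Cd8b1 (-0.15, SE 1.74) and Cd8a (0.51, SE 1.03) differed by less than their standard errors. None of the 10 genes had groups that did not overlap, which 9.57% of all genes had.

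Without PA LP 2, the library with few genes in this layer, Cd3g differed by -0.46 and Cd3e by -0.93, and Lat (0.25) and Lck (0.14) were no longer lower in PA milk. Cd3d (-2.04) and Cd247 (-2.28), both listed at 0 in PA LP 1 as well, were still lower. Epithelial genes summed to 1397.57 to 3000.03 FPKM in PA LP and 10022.98 to 12447.79 in ND LP, without overlap. All 7 tested B and plasma cell genes also had lower means in PA LP, with a median log2 difference of -3.71, and none of them was called. Whether either has a part in the lower T cell genes was not tested.

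**Figure D3:**
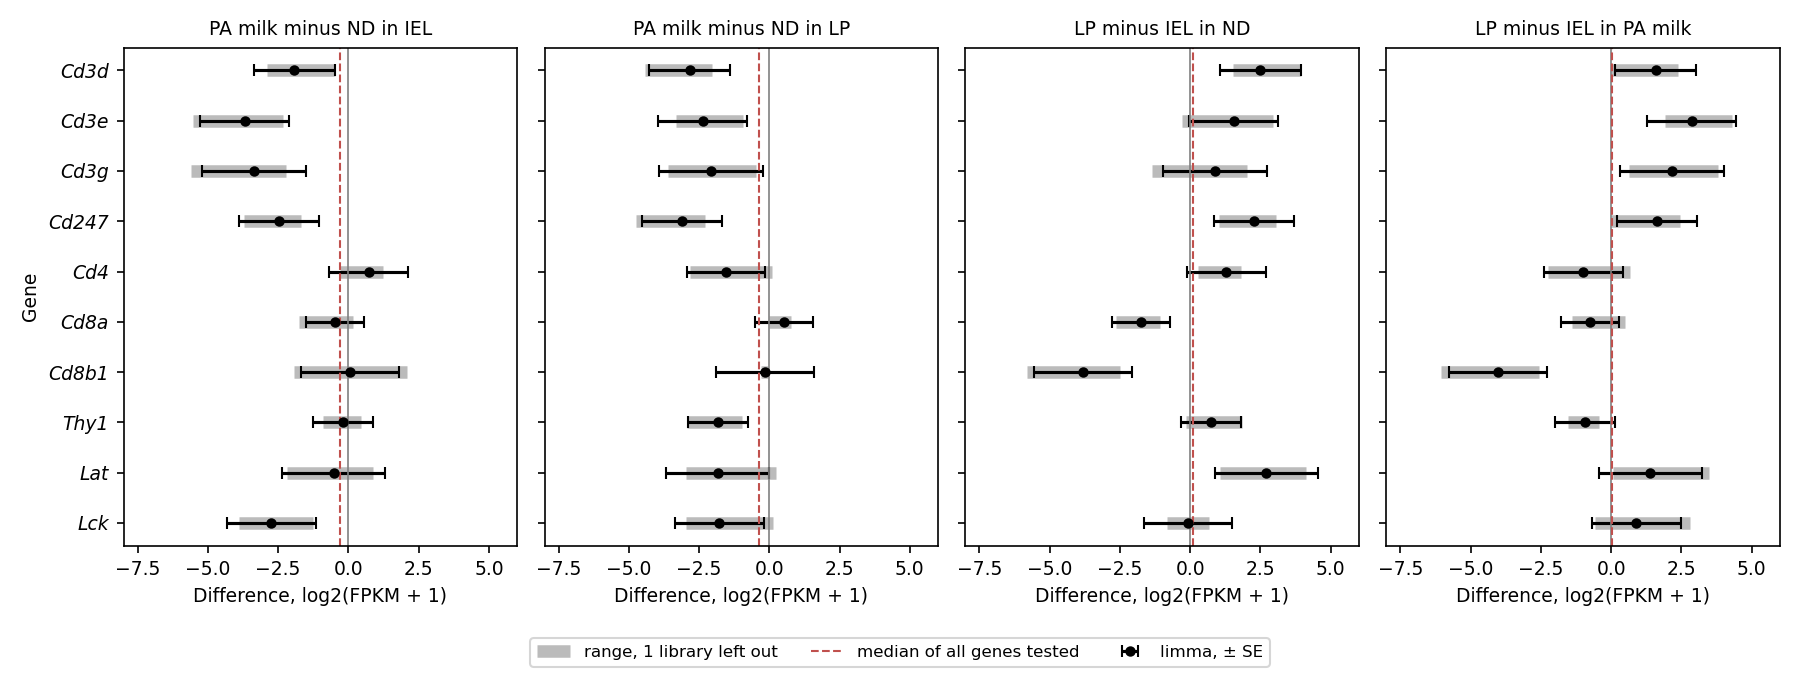
Differences in mean log2(FPKM + 1) (x axis) of the 10 genes (y axis) in 4 comparisons; points and whiskers are the limma estimate ± SE, grey bars the range when 1 library is left out, and the dashed line the median of all genes tested. The chains lie left of the dashed line in both diet comparisons, with a median of -2.92 in IEL and -2.60 in LP, and Cd8b1 lies left of 0 in both layer comparisons.

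Both diet comparisons were then set against each other. The difference between the diet effects, LP minus IEL, had a median of -0.42 over the 10 genes, against -0.03 over all genes, and limma called none of the 10 and no other gene (0% called). None of the 10 was found at an unadjusted p-value under 0.05, where 2.34% of all genes were. The difference of effects was 1.33 (SE 2.24) for Cd3e, 1.30 (SE 2.61) for Cd3g, -0.91 (SE 2.03) for Cd3d and -0.63 (SE 2.02) for Cd247, each smaller than its standard error. Without the 3 libraries with few genes, these differences were 4.61 (SE 1.12, limma adjusted p = 0.866) for Cd3e, 4.54 (SE 1.63, adjusted p = 0.984) for Cd3g, 0.85 (SE 2.23) for Cd3d and 1.42 (SE 1.92) for Cd247, and the median over the 10 genes was 1.25. In that fit limma called none of the 10, and 2 of them were found at an unadjusted p-value under 0.05, where 569 of all 12502 genes were. The size of the difference between the layers thus depended on these 3 libraries, and it passed the adjusted threshold in neither fit.

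The layers were compared within each diet, with the same libraries as before. In ND, 7 of the 10 genes had higher means in LP than in IEL, with a median log2 difference of 1.07 against 0.09 over all genes, and limma called none of them, where 0.032% of all genes were called. In PA milk, 6 of the 10 had higher means in LP, with a median of 1.15 against 0.03, and again none was called, where 0.144% of all genes were. By limma-voom none of the 10 was called in either. In ND the log2 differences of the chains were 2.50 (SE 1.44) for Cd3d, 2.28 (SE 1.43) for Cd247, 1.55 (SE 1.58) for Cd3e and 0.87 (SE 1.85) for Cd3g, and without the 3 libraries with few genes those of Cd3e (-0.30, SE 0.75) and Cd3g (-1.35, SE 1.10) had the other sign. In PA milk, where all or nearly all IEL values were 0, they were 2.87 (SE 1.58) for Cd3e, 2.17 (SE 1.85) for Cd3g, 1.64 (SE 1.43) for Cd247 and 1.59 (SE 1.44) for Cd3d. Lat differed by 2.71 (SE 1.83) and 1.40 (SE 1.83), and Lck by -0.08 (SE 1.58) and 0.89 (SE 1.58). For Cd4 the direction was not the same in both diets, with 1.28 (SE 1.40) in ND and -0.99 (SE 1.40) in PA milk, both smaller than their standard errors, and Thy1 was 0.74 (SE 1.07) and -0.92 (SE 1.07). None of the 10 had groups that did not overlap, which 19.3% of all genes had in ND and 8.57% in PA milk.

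Of the 10 genes, Cd8b1 had the largest difference in both, lower in LP by a log2 difference of -3.81 in ND (SE 1.74, adjusted p = 0.719) and -4.02 in PA milk (SE 1.74, adjusted p = 0.446). It was the only one of the 10 at an unadjusted p-value under 0.05, where 6.63% of all genes were in ND and 10.6% in PA milk. Without the 3 libraries with few genes, limma called Cd8b1 in both diets, at -5.80 in ND (SE 0.89, adjusted p = 0.0187) and -6.05 in PA milk (SE 0.97, adjusted p = 0.0114), among 74 and 355 genes in all. The 2 IEL libraries left out there are the ones without Cd8b1, and the gene had passed the filter on low values through IEL libraries alone, so that these calls describe the libraries kept and add no support. In that fit Cd3e was also called in PA milk, higher in LP by 4.31 (SE 0.83, adjusted p = 0.0266), where PA LP 2, left out, was the PA LP library with Cd3e at 0. In the same comparisons the epithelial genes were lower in LP by a median of -2.28 in ND and -2.47 in PA milk, and limma called Apoa1 in both and Apoa4 in PA milk; the part of cells of the epithelial layer in the Cd8b1 difference was not tested. Cd8a was -1.76 (SE 1.03) in ND and -0.76 (SE 1.03) in PA milk, and was not called.

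Over the 12 libraries, the genes most like the mean log2(FPKM + 1) of Cd3d, Cd3e and Cd3g were then listed. The highest Spearman correlation was 0.96 for 6430527G18Rik, followed by Twf1 (0.93), Cd6 and Tjp1 (both 0.91) and Arfip1 (0.90), and by Gys1, Zfp617, 1300002E11Rik, Eif2ak4 and Zswim6 (all 0.88). Cd6, a T cell surface receptor, was listed at 0 in PA IEL, in PA LP 1 and 2 and in ND IEL 2, and was 18.24 to 63.08 FPKM in the other 6 libraries, the ones that held all 4 chains. Of the 7 remaining genes of the list, Lat (0.84), Lck (0.82) and Cd247 (0.80) were close to the chains and Thy1 was at 0.60, whereas Cd8a (0.32), Cd4 (0.13) and Cd8b1 (0.05) were not. These 12 points share the depth and the number of genes found in each library, and the values are a description.

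Further genes of T cell function were taken from lists. Of 33 tested genes of proximal T cell receptor signalling, limma called none in any of the 5 comparisons, and the median log2 difference of PA milk and ND was -0.12 in IEL and -0.59 in LP. The 5 with the highest mean FPKM, Ptpn6, Sla, Fyn, Sla2 and Grb2, are used by other leukocytes as well. Fyn, a kinase related to LCK, was 30.46 to 207.80 FPKM in all 12 libraries, with its highest value in PA IEL 2, where Lck was 0.04. The signalling genes summed to 460.6 to 1428.84 FPKM, with overlap between all 4 groups.

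Of 19 tested costimulatory genes, 13 had lower means in PA milk in IEL (median -1.48) and 17 in LP (median -1.84), and limma called none. Ctla4, an inhibitory receptor, was 28.31, 0.04 and 7.37 FPKM in PA IEL, 48.49, 0 and 101.10 in ND IEL, 16.80, 0 and 121.81 in PA LP, and then 76.73, 95.87 and 83.75 in ND LP. It was present in PA IEL 1, where no chain was found. Cd2, an adhesion receptor of T and NK cells, was listed at 0 in all 3 PA IEL libraries, like Cd3d, Cd3e and Cd247. It was 14.51, 0 and 8.88 FPKM in ND IEL, 45.57, 0.10 and 149.92 in PA LP, and then 74.32, 38.69 and 35.79 in ND LP. Cd7, found on T cells and innate lymphocytes, was by contrast 129.80 to 436.21 FPKM in all IEL libraries. The T cell markers Cd5 and Cd28 were, like Ctla4, present in PA IEL 1. Cd5 was 23.24, 0 and 0 FPKM in PA IEL, against 27.32, 0 and 40.56 in ND IEL. Cd28 was 20.60, 0.02 and 0.06 FPKM in PA IEL, against 8.99, 12.67 and 22.60 in ND IEL.

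Of the 12 T-lineage transcription factor genes, none was called, and the median differences were -0.29 in IEL and -1.15 in LP. Tcf7, which encodes TCF-1 of early T cells and innate lymphoid cells, was 94.85 FPKM in PA IEL 1 and 61.42 in PA IEL 3, was listed at 0 in PA IEL 2, and was 10.62, 0 and 20.53 in ND IEL. In LP it was 0, 0 and 25.58 FPKM with PA milk, against 81.42, 68.04 and 24.75 with ND. Its log2 difference was thus 1.53 (SE 1.79) in IEL and -4.14 (SE 1.79, limma adjusted p = 0.979) in LP.

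Regulatory T cells carry CD25 and Nrp1, which the gate selects, and their markers were therefore examined. Foxp3, their defining transcription factor, was 0, 0.02 and 0.02 FPKM in PA IEL, 3.70, 0.13 and 6.84 in ND IEL, 0, 0.03 and 23.20 in PA LP, and then 0.02, 7.34 and 5.39 in ND LP. The 5 libraries with Foxp3 above 3 FPKM all held all 4 chains, and ND LP 1, which also held them, had 0.02. Tnfrsf4, an activation receptor, was highest in PA LP 3 at 174.82 FPKM and in ND LP 2 at 101.72, and was at most 0.11 in PA IEL. Of 9 tested genes of the list, 6 were lower in PA milk in IEL and 8 in LP, and limma called none. For Foxp3 the differences were -1.77 (SE 1.24) in IEL and -0.38 (SE 1.24) in LP.

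Cytotoxic genes were looked at because intraepithelial T cells and NK cells carry them. Of 12 tested, 9 had lower means in PA milk in IEL (median -1.99) and 7 in LP (median -0.41), and limma called none. Nkg7, the highest by mean FPKM, was 671.92 in PA IEL 2 and 27.45 to 183.36 in the other IEL libraries, and differed by 0.54 (SE 0.99) in IEL. Klrk1, an activating receptor, was 83.86 FPKM in PA IEL 2 and differed by 1.81 (SE 1.41). Gzmb, a granzyme, was 407.14 and 649.43 FPKM in ND IEL 1 and 3 and listed at 0 in ND IEL 2 and all PA IEL libraries, and was at most 17.01 in LP. Gzma followed it in IEL, at 273.34 and 374.74 FPKM in ND IEL 1 and 3. These are the same 2 IEL libraries that held all 4 chains and Cd8b1 together, whereas PA IEL 1 and 3 held Cd8b1 with little or no CD3 and no granzyme reads above the floor. The limma differences of PA milk and ND in IEL were -6.01 (SE 1.87) for Gzmb and -5.50 (SE 1.83) for Gzma, both with an adjusted p of 0.947. Of 20 genes of ILC3s, 18 had lower means in PA milk in LP (median -1.72) and 6 in IEL (median 0.70), and none was called.

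**Figure D4:**
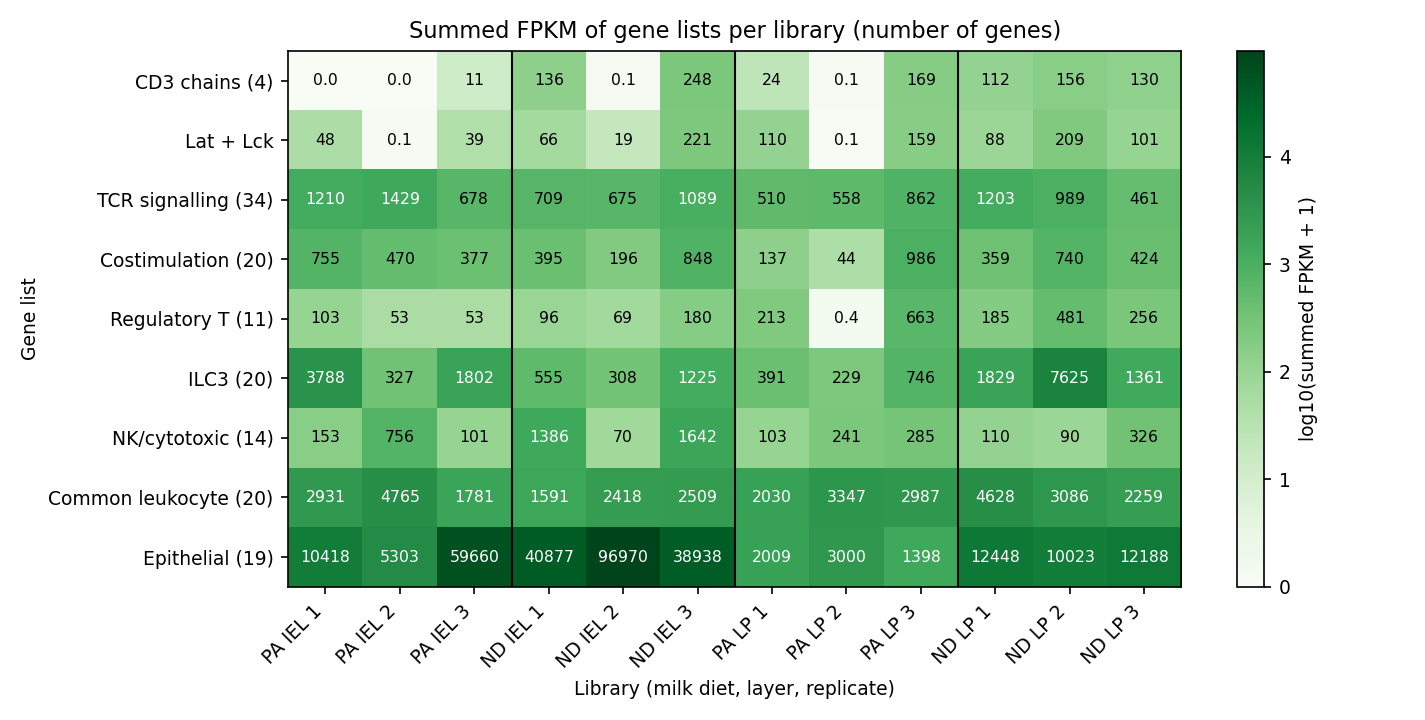
Summed FPKM of 9 gene groups (y axis, with the number of genes) in the 12 libraries (x axis), coloured by log10(summed FPKM + 1). The 4 chains go from 0 to 247.67 FPKM between libraries, while the signalling genes stay between 460.6 and 1428.84 and the common leukocyte genes between 1591.42 and 4765.46.

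Genes of the receptor chains that recognise antigen could not be set beside the CD3 chains. Of 18 symbols of receptor chain segments and their partners, Ptcra alone, which encodes the surrogate alpha chain of immature T cells, was matched, at 7.01 and 6.46 FPKM in ND IEL 1 and 3 and at most 0.51 in the other 10 libraries. The other 17 were not analysed here.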

How the data were processed

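RNA of sorted ILC3s was sequenced after SMART-Seq v4 amplification of full-length cDNA, without molecular identifiers. The authors deposited FPKM values per gene, made, per the submitters' processing notes, with mm10, TopHat2 2.1.1, Bowtie2 2.2.8.0, SAMtools 0.1.18, Cufflinks 2.2.1 and Cuffdiff 2.2.1. The gene annotation, the strand setting and the treatment of multiply mapped reads are not given in the sources used here. The authors also deposited a table of counts, whose values are a scaled signal: the ratio of FPKM to count was constant per gene, and scaled counts summed to 9376529 to 11710874 per library. Low values lay at multiples of a step of 0.683 to 1.09 scaled counts, with 90.7% to 99.0% no further than 0.05 from a whole number of steps. This step was taken as 1 read, giving 8.77 to 14.62 M reads per library and a floor of 3 reads.

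Genes at 1 FPKM or more in 3 or more libraries (12502) were fitted by limma 3.58.1 in R 4.3.3 with a mean-variance trend on log2(FPKM + 1), which understates changes of low genes. All 12 libraries entered 1 fit of 4 group means, 5 comparisons were drawn from it, and p-values were adjusted by Benjamini-Hochberg with a threshold of 0.05. Python 3.11.15, numpy 2.4.6, pandas 2.3.3, scipy 1.17.1 and matplotlib 3.10.9 were used for tables, exact permutation tests and plots. The fit was tested on simulated data that held neither missed transcripts nor libraries with few genes, so that this test does not cover these features of the data. Alternatives were upper quartile or leukocyte gene scaling, another pseudocount, no filter or a stricter one, only the 6 libraries compared, replicate blocks, limma-voom on recovered reads and leaving out each library. Fits without the 3 libraries with the fewest genes were added after the data had been seen.

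The 10 genes and all lists were chosen with earlier results of these data known. Named were all 10 genes, the called genes and the 5 of highest mean FPKM of each other list, any gene of the lists for regulatory T cells, the gate, receptor chains and ILC3s, and the 10 genes most like Cd3d, Cd3e and Cd3g. The T cell markers Cd5 and Cd28 were named as well. Coordinates are those of GENCODE vM21 (GRCm38, the build that mm10 names).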

Additional observations from a re-analysis of the deposited data

How the results depend on the processing

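Of 815 values of single genes under alternatives, 761 kept direction and side of the threshold, 51 reversed and 3 passed the threshold; the cause was not tested. For 28 of 50 gene and comparison pairs no alternative reversed the direction, among them Cd3d, Cd3e, Cd3g, Cd247 and Lck for diet in IEL and all 4 chains for diet in LP. Reversed for diet in IEL were Cd4 with limma-voom (-0.51) and without the 3 libraries with few genes (-0.53), and Cd8b1 with upper quartile (-0.01) and leukocyte scaling (-0.05). Without those 3 libraries, Lat (0.25) and Lck (0.14) reversed for diet in LP, and Cd3e (-0.30) and Cd3g (-1.35) for layer in ND, where Cd3g was also -1.02 with limma-voom. For the difference of diet effects, limma-voom gave 1.89 for Cd3d and 3.29 for Cd247, and a median of 1.79 over the 10 genes in place of -0.42. Without the 3 libraries these were 0.85 and 1.42, and Lat was 1.09; Cd3e and Cd3g kept their direction but went from 1.33 and 1.30 to 4.61 and 4.54. The number of the 10 genes called by limma was then 1 for layer in ND and 2 for layer in PA milk.

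When each library was left out in turn, the log2 differences that changed sign ranged as follows. For diet in IEL, Cd4 went from -0.29 to 1.23, Cd8a from -1.76 to 0.18, Cd8b1 from -1.93 to 2.07, Thy1 from -0.90 to 0.45 and Lat from -2.18 to 0.88. For diet in LP, Cd4 went from -2.81 to 0.11, Lat from -2.96 to 0.25 and Lck from -2.95 to 0.14. For the difference of effects, Cd3d went from -2.50 to 0.05, Cd3e from -0.06 to 3.18, Cd3g from -0.24 to 3.52, Cd247 from -2.28 to 0.60, Cd8b1 from -2.23 to 1.78, Lat from -2.72 to 0.77 and Lck from -0.51 to 2.90. For layer in ND, Cd3e went from -0.30 to 2.93, Cd3g from -1.35 to 2.03, Thy1 from -0.14 to 1.83 and Lck from -0.81 to 0.66. For layer in PA milk, Cd4 went from -2.25 to 0.66, Cd8a from -1.39 to 0.51 and Lck from -0.59 to 2.82.

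Same-numbered libraries did not deviate together (r = -0.12 to 0.07 between diets and -0.03 to 0.06 between layers, 6 pairs each). Libraries of different number were not compared in this way, so these values cannot decide whether same-numbered libraries share a mouse. With the replicate number as a block, 0 of the 10 genes were called in any comparison. Their medians were then -1.23 and -1.84 for diet in IEL and LP. The block raised the count over all genes for diet in LP from 0 to 3, and a block by mouse label gave 1 for the difference of effects, 0 for layer in ND and 5 for layer in PA milk. For layer in ND, where 4 of all genes were called, limma-voom called 350, the 6 libraries alone 92, the stricter filter 2, a pseudocount of 0.1 called 1 and no filter 0. For layer in PA milk, where 18 were called, these were 0 with limma-voom, 1 with the 6 libraries alone and 3 with no filter. Leaving out single libraries moved the count from 0 to 1 for diet in IEL without PA IEL 3, to 8 for diet in LP without PA LP 3, to 65 for layer in ND without PA LP 2 and to 289 for layer in PA milk without PA LP 2. Leukocyte scaling moved the median of all genes from -0.36 to -0.03 for diet in LP and from 0.09 to -0.34 for layer in ND, and the share of genes with positive differences from 37.4% to 48.6% and from 53.6% to 37.7%; for the difference of effects the share went from 49.2% to 63.1%. Whether depth limited these values was not tested, and the number of sorted cells is not stated. SMART-Seq cDNA from few cells can miss transcripts, and 37 of 120 values were listed at 0.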
